A study of Mus musculus with 6 samples.

Results

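The regions described here are the 500 stretches of open chromatin with the highest enrichment that was shared by every library of a mouse monocyte experiment. Peaks of the 6 deposited lists on chromosomes 1 to 19 that overlapped or touched were merged into 90477 regions, and 67099 of these had a peak in all 6 libraries. For each library the highest fold enrichment among its peaks in a region was taken, and the 500 regions whose lowest value over the 6 libraries was largest were kept. They made up 0.745% of the shared regions. The fold is the authors' value for a peak: how far its signal stood above the background that their peak caller estimated. The regions were chosen by this fold in all 6 libraries, so fold values are given below as a description and no p-value is given for their height. The lowest fold of the 500 ran from 11.9 to 39.0 with a median of 12.8, against a median of 5.14 over all shared regions.

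The study is described here as ATAC-seq of blood monocytes, the assay named in each sample's title and protocol, although the title of the whole series names histone modifications. In this assay the Tn5 transposase cuts and tags DNA that is not packed in nucleosomes. The DTR group was 3 libraries from PF4cre-iDTR mice given diphtheria toxin, and the WT group was 3 libraries from wild-type mice given the same toxin. In the DTR animals Pf4-driven Cre switches on a diphtheria toxin receptor in megakaryocytes and platelets, so the toxin depletes platelets. The labels call these animals thrombocytopenic and the WT animals controls, and they do not give age, sex, toxin dose, time or whether each library came from its own animal. P-values therefore measure the spread between libraries, which may be technical.

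Open chromatin marks promoters, where transcription starts, and enhancers, which lie within or between genes and bind cell type factors. In monocytes the ETS factor PU.1, C/EBP factors and AP-1 are known for binding distal elements, while promoters of genes that all cells use are commonly bound by other ETS factors, NRF1, YY1 and SP factors. A fold over background is a level and not a sum over the region's length, so a short region can outrank a long one that holds more signal in all.

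Of the 500 regions, 202 (40.4%, Wilson 95% interval 36.2 to 44.8%) lay at the start of a protein-coding gene, taken as within 1 kb of a start. The same share over all shared regions was 18.5%. A further 130 lay in a gene body and 168 between genes. The Wilson interval treats the regions as independent draws, which the top of a ranking is not. It does not measure the spread between libraries. The sequences below show what a gene start in the 500 regions looks like. They are the 300 bases from 250 before to 50 after a RefSeq start (GRCm38.p6), on the gene's strand. Capitals mark letters that match any of 14 transcription factor motifs searched on both strands.

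N6amt1, which encodes a methyltransferase, and Borcs7, which encodes a subunit of a lysosome-positioning complex, were the highest starts with a table entry, at ranks 12 and 16. Psmg4 encodes a proteasome assembly chaperone and Mrpl48 a mitochondrial ribosomal protein, and they led the proteasome and mitochondrial ribosome genes. Ints4, a subunit of the Integrator complex that processes small nuclear RNAs, is shown because the ranks of its region did not overlap between the groups. The stretches lie at chr16:87353935-87354234 (plus strand), chr19:46689656-46689955 (plus), chr13:34162714-34163013 (plus), chr7:100583081-100583380 (minus) and chr7:97480706-97481005 (plus).
N6amt1: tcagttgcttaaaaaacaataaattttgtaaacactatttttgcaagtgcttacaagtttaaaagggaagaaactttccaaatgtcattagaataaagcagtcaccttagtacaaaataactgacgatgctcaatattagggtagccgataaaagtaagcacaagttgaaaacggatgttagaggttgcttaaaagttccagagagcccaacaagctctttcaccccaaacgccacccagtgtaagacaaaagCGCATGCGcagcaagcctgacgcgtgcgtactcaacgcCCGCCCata
Borcs7: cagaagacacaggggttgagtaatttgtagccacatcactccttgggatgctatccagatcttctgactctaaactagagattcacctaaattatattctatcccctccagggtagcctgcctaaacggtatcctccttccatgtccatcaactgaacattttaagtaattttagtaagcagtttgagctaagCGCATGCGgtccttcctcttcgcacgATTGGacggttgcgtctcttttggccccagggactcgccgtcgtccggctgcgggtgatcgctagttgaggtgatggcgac
Psmg4: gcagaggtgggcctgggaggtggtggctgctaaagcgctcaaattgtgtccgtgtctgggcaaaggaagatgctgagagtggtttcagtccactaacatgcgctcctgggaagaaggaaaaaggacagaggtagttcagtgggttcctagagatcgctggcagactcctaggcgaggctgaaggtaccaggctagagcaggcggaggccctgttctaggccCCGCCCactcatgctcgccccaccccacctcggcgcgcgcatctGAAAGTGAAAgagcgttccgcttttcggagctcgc
Mrpl48: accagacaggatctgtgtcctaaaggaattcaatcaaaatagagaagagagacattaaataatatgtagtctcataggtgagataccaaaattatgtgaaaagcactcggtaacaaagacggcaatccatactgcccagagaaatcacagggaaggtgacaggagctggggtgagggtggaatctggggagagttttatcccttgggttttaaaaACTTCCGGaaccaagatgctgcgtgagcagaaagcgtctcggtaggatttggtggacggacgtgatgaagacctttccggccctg
Ints4: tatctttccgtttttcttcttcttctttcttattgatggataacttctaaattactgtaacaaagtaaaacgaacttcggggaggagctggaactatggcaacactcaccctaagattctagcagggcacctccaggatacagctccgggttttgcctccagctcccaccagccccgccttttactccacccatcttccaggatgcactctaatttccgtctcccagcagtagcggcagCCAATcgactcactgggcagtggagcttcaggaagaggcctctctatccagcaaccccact
N6amt1 and Borcs7 both hold the NRF1 letters CGCATGCG near the start. Mrpl48 holds the ETS letters just upstream of its start. Psmg4 has an IRF-type match and a GC box, and Ints4 matched the CCAAT box alone.

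Motifs were then counted over all 201 listed starts of 181 protein-coding genes that fell inside 167 of the 500 regions. The ETS letters CCGGAAGT were present at 31 of them (15.4%), against 991 of the 11066 starts in any shared region (8.96%) and 5.28% of all 20085 starts. The YY1 letters AAGATGGC were present at 20 starts (9.95%), against 4.59% in shared regions and 3.06% of all starts. The NRF1 letters CGCATGCG were present at 14 starts (6.97%), against 4.18% in shared regions. The CRE letters TGACGTCA, which CREB and ATF factors bind, were also present at 14 starts (6.97%), against 3.46%. Counted by region, the CRE starts lay in 9 of the 167 regions (5.39%), as several shared a region, and the NRF1 starts in 13 (7.78%). The ETS starts lay in 25 regions (14.97%) and the YY1 starts in 18 (10.8%). No share by region is given here for all shared regions, so part of the CRE excess over starts may be repeat counting. At least 1 of the ETS, YY1, NRF1 and CRE motifs was found at 69 of the 201 starts (34.3%), against 2137 (19.3%) of those in any shared region. These 4 of the 14 motifs each had a higher share at these starts, so the pooled excess follows from grouping them and adds no support. The GC box GGGCGG of SP factors was not in the group and went the other way (51.7%, against 67.6%). The windows below show the highest-ranked matches of each of the 4, 40 bases long on the gene's strand, with the match in capitals.

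The 4 highest-ranked starts with the ETS letters were these.
Stpg2: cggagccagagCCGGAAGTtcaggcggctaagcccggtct
Thg1l: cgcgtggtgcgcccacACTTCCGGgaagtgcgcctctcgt
Bms1: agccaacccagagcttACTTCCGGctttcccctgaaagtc
Mrpl48: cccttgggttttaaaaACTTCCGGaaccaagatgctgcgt
Thg1l encodes a tRNA-modifying enzyme, Bms1 a ribosome assembly factor and Mrpl48 a part of the mitochondrial ribosome. Counted from the start, with upstream negative, the 37 ETS matches were centred at a median position of −28, against −26 over all shared regions.

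The YY1 matches shown next all lay after the start.
Aars2: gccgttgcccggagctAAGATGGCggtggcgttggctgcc
Rnf121: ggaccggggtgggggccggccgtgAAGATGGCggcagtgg
Ptcd3: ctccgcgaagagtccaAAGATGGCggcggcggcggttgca
Coil: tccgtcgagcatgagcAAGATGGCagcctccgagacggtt
Aars2 encodes a mitochondrial alanyl-tRNA synthetase, Ptcd3 a mitochondrial ribosome protein and Coil the Cajal body protein coilin. Of the 21 YY1 matches, 14 (66.7%) were downstream of the start, at a median position of 15 over all 21, against 54.0% and 7.5 over shared regions.

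The NRF1 matches came from N6amt1, Borcs7, Nploc4, which encodes a cofactor of the p97 ATPase, and Naxe, which encodes a metabolite repair enzyme.
N6amt1: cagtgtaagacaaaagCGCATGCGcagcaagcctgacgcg
Borcs7: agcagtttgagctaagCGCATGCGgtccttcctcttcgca
Nploc4: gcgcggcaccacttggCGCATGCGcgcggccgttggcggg
Naxe: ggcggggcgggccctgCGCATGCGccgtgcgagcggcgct
All 4 lay close to the start, and the 17 matches had a median position of −48 from the start, against −51.5 over shared regions.

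The CRE matches came from Ldah, a lipid droplet protein gene, the zinc finger gene Zfp868, Kptn, which encodes a regulator of growth signalling, and Ddx49, an RNA helicase gene.
Ldah: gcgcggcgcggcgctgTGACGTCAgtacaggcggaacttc
Zfp868: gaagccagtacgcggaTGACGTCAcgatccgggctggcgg
Kptn: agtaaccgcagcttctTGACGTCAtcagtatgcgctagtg
Ddx49: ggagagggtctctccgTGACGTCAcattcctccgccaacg
The 14 CRE matches had a median position of −44 from the start, against −44.5 over shared regions.

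Several other motifs were less frequent at these starts than at starts in shared regions at large. The GC box GGGCGG, bound by SP and KLF factors, was present at 104 of the 201 (51.7%), against 67.6%. The E-box CACGTG was present at 12 (5.97%), against 10.5%. The PU.1 letters GAGGAAGT were present at 1 start (0.498%) and the AP-1 letters TGANTCA at 3 (1.49%), against 3.46% and 4.57%. The CCAAT box (CCAAT) was near the same in both, at 39.8% and 37.9%. The RUNX letters TGTGGTT stood at 2.99% against 3.61%. The C/EBP letters TTGCGCAA were at 1 start (0.498%, against 0.325%) and the ZNF143 letters ACTACAATT at none (against 0.822%). With background shares this low, neither of these last counts stands apart. The TATA box TATAAA was present at 14 starts (6.97%, against 6.26%). Its 16 matches had a median position of −191.5, against −139 over shared regions. Both medians are well upstream of where a TATA box works. An IRF-type motif (a repeat of GAAA with a gap of any pair of bases) was present at 11 starts (5.47%), against 3.19%. These 11 starts lay in 7 of the 167 regions (4.19%). A match describes letters and not binding, several starts of a gene can share bases, and the ETS, NRF1 and CRE letters each contain CG while the ETS and PU.1 letters end in the same 6 bases. The starts in the 500 regions held a median of 17 CG pairs in their 300 bases (quartiles 12 to 23), against 22 (14 to 30) over shared regions, and 56.3% G and C against 62.0%.

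**Figure D1:**
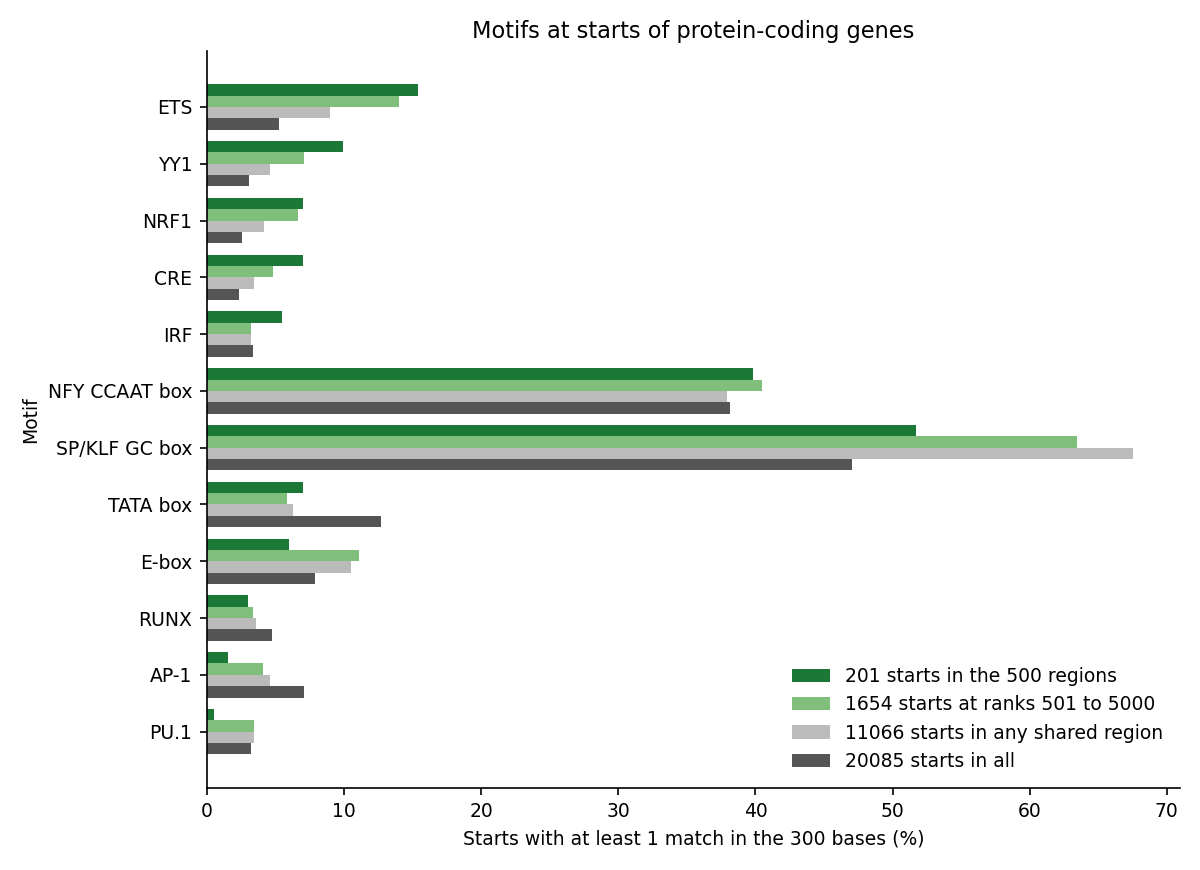
Horizontal bars give the share of protein-coding starts with at least 1 match to each of 12 motifs, in percent, for starts in the 500 regions, at ranks 501 to 5000, in any shared region and in all. The ETS bar falls from 15.4% in the 500 regions through 14.03% at ranks 501 to 5000 to 8.96% over shared regions, while the GC box bar is lowest in the 500 regions among the 3 sets of open starts.

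The ETS, YY1, NRF1 and CRE bars thus all descended from the 500 regions to ranks 501 to 5000 and on to all shared regions. ETS and NRF1 stood nearly as high at ranks 501 to 5000 (14.03% and 6.65%) as in the 500, so these shares belong to a wider set of highly enriched starts. YY1 (7.07%) and CRE (4.84%) lay in between.

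The peak lists gave 77867 to 84029 peaks per library, with a median fold over the 500 regions of 13.8, 13.8 and 13.5 in the DTR libraries and 13.4, 13.6 and 13.96 in the WT libraries. No read counts are in the lists, so depth is unknown. Cell type markers were looked at by their starts: all 8 monocyte markers examined, among them Ly6c2, Ccr2, Csf1r and Spi1, had a shared region there. So did 61.0% of all protein-coding genes, so a shared region at a start does not by itself identify a cell type. The lowest folds of the 8 monocyte markers ran from 3.19 (Spi1, which encodes PU.1) to 8.005 (Ly6c2, rank 10553), so none was among the 500. Of the markers of other cells, a shared region stood at the start of 2 of 5 megakaryocyte and platelet genes (Pf4 at a lowest fold of 5.69, and Gp9), 2 of 5 neutrophil, 1 of 4 B cell, 1 of 5 T and NK cell, 2 of 3 erythroid (Klf1 at 8.95) and 0 of 3 basophil and mast cell genes.

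The highest regions of all were not at gene starts. No genome sequence was used, so repeats in them were not checked, nor whether reads from elsewhere could be placed there. Their folds are uncertain to that extent. The first region lay in the body of Gphn, which encodes the scaffold protein gephyrin, at chr12:78350869-78351176. Its folds were 39.97, 40.4 and 39.0 in the DTR libraries and 39.0, 39.7 and 40.5 in the WT libraries. It was first in each library, the groups overlapped, and the highest value was 1.04 times the lowest.

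The second lay in the body of Lars2, which encodes a mitochondrial leucyl-tRNA synthetase, at chr9:123461791-123462190. Its folds were 33.9, 34.0 and 33.5 in the DTR libraries and 33.3, 34.0 and 34.5 in the WT libraries. The groups overlapped, and this region also had the largest lowest −log10 p of all shared regions, 1608. The third, chr3:5860339-5860819, was 281743 bp from the nearest protein-coding gene, Pex2, and its folds ran from 27.4 to 28.3.

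Ranks 4 to 10 lay in the bodies of Jarid2 (a Polycomb cofactor), Cntnap5b, Zc3h7a and Camk1d (a calcium-dependent kinase), and near Chrm3, Rimbp3 and Btbd16. The widest spreads between libraries were at Cntnap5b, with folds of 29.1, 27.8 and 26.5 in DTR and 25.5, 28.0 and 32.8 in WT, and in the region 40933 bp from Chrm3, with 25.3, 26.6 and 28.3 in DTR and 24.4, 25.8 and 30.4 in WT. In both, WT replicate 1 was the lowest and WT replicate 3 the highest of the 6 libraries. The 10 highest regions had a median width of 323.5 bp, 6 were in gene bodies and 4 between genes.

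**Figure D2:**
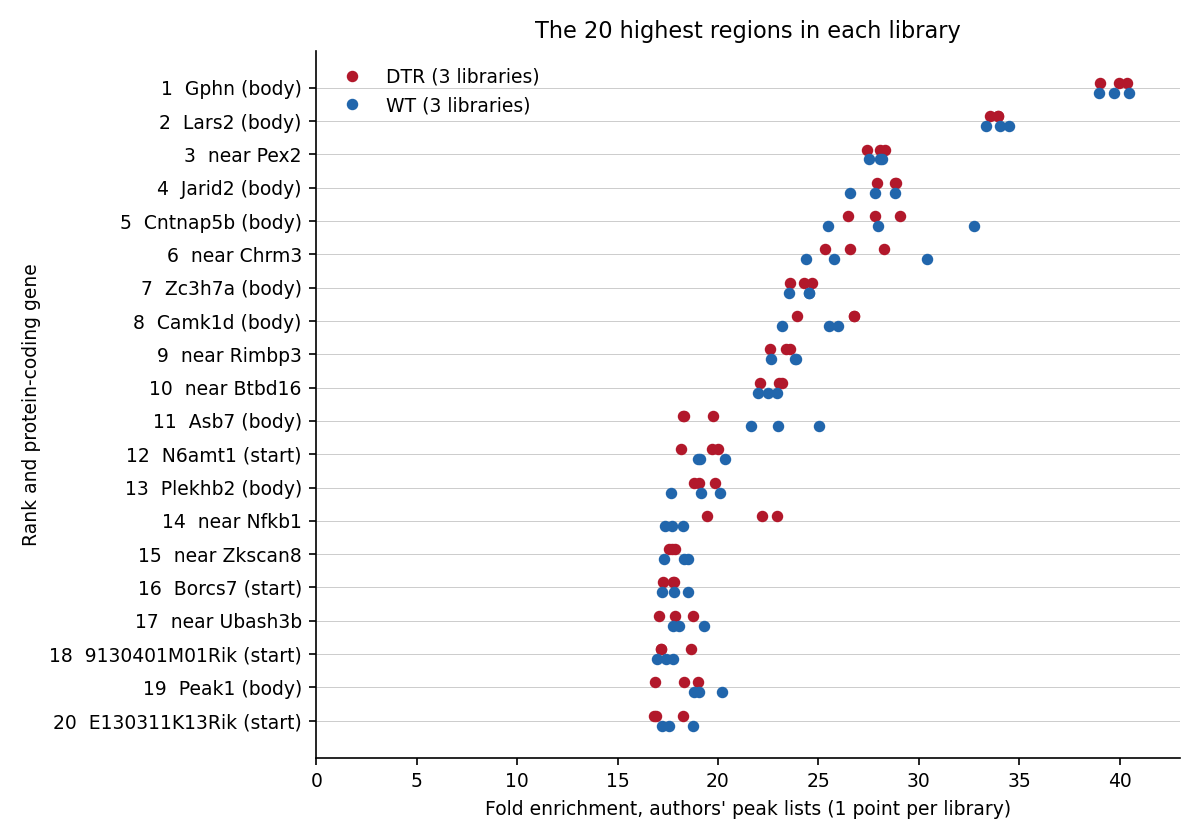
Points give the fold of each library (red DTR, blue WT, 3 each) for the 20 highest regions, with the protein-coding gene at the start, around or nearest to the region on the vertical axis. Gphn stands at 39.0 to 40.5, and the points of the groups are apart for the Asb7 body region and the region near Nfkb1.

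The first gene start, N6amt1 at rank 12, had folds of 20.01, 19.7 and 18.2 in the DTR libraries and 19.02, 19.1 and 20.3 in the WT libraries, with the groups overlapping. Borcs7 had 17.7, 17.8 and 17.3 in DTR and 17.2, 17.8 and 18.5 in WT, and its groups overlapped too. The starts of 9130401M01Rik and E130311K13Rik followed, at ranks 18 and 20. The other regions up to rank 20 were in the bodies of Asb7, Plekhb2 and Peak1, near Nfkb1 and Ubash3b, and over the pseudogene Zfp389. The region near Ubash3b overlapped the long noncoding RNA gene 1700063D05Rik.

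**Figure D3:**
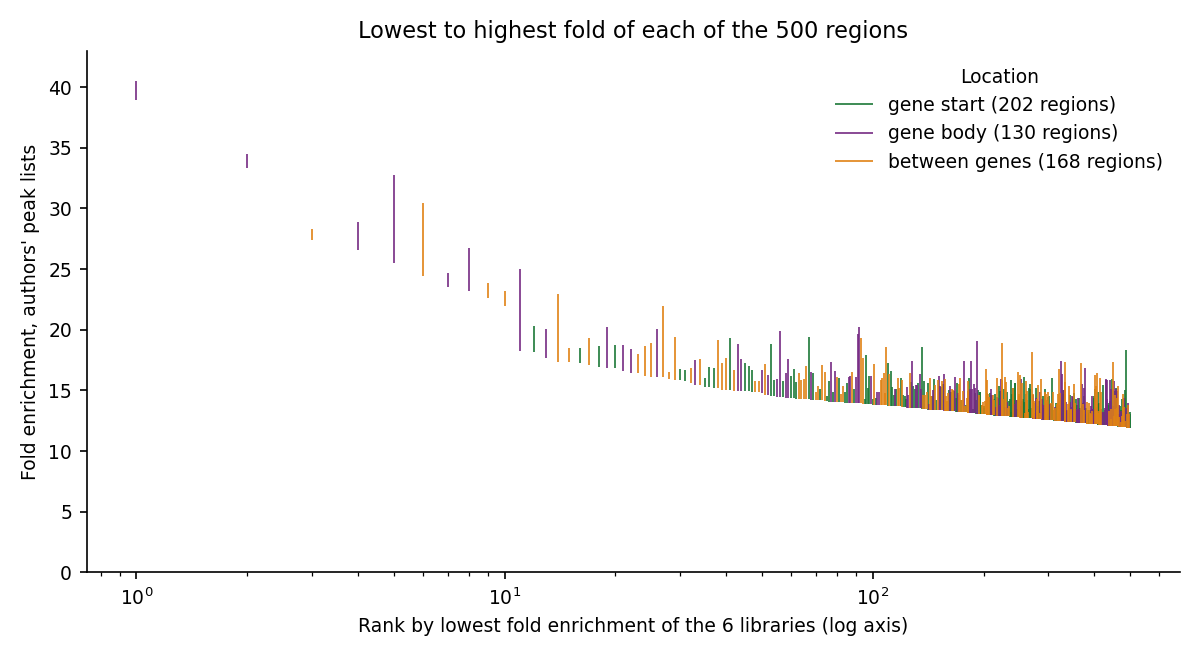
Each vertical line spans the lowest to the highest fold of 1 of the 500 regions over the 6 libraries, by rank on a log axis and coloured by location. The line at rank 1 stands at 39.0 to 40.5, the lowest value falls to 11.9 at rank 500, and the first gene start appears at rank 12.

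The last members were the starts of Mcph1, Prdm9 and Oxa1l, with lowest folds of 11.9141, 11.9138 and 11.9117. The next regions, which lay near Wdr5, near Atp2b1 and in the body of Usp32 and were left out, had 11.9115, 11.9104 and 11.9071, so the limit at 500 separates neighbours by far less than the spread between libraries. All 500 had exactly 1 peak in each library, and 169 were among the 500 highest of every library taken alone.

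Location changed with rank within the 500. Starts made up 0 of the first 10, 26% of ranks 1 to 50, 42% of ranks 51 to 100 and 43.6% of ranks 251 to 500. Below the limit the share was 45.0% at ranks 501 to 1000, 35.4% at ranks 1001 to 5000 and 13.8% beyond rank 20000. The first 50 were thus poorer in starts than the regions just under the limit, and richer than the regions beyond rank 20000.

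**Figure D4:**
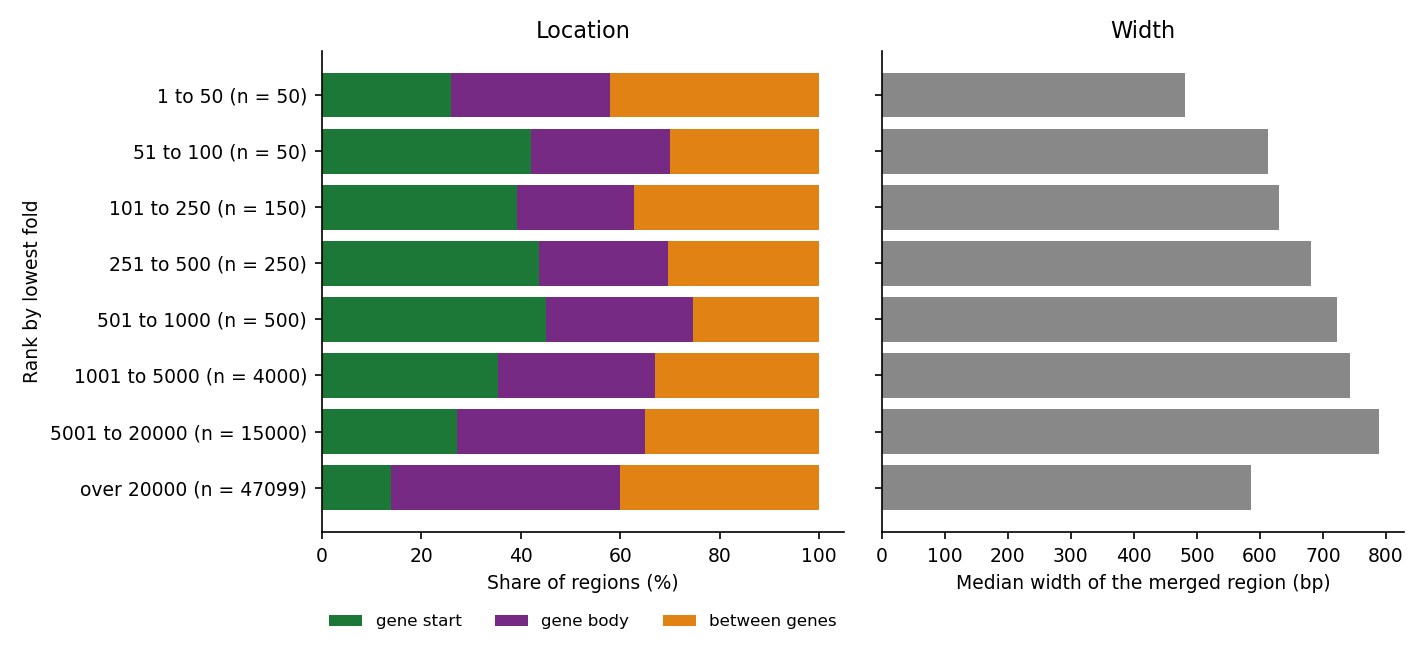
Stacked bars give the share of regions at a gene start, in a gene body or between genes, in percent, and grey bars the median width in bp, for 8 bins of rank over all 67099 shared regions. The start share is 26% at ranks 1 to 50, 45.0% at ranks 501 to 1000 and 13.8% beyond rank 20000, and the median width is 480.5 bp at ranks 1 to 50 and 789 bp at ranks 5001 to 20000.

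Width went with location. Regions at starts had a median width of 764.5 bp, those in gene bodies 501 bp and those between genes 498 bp. In all, 90 of the 500 were narrower than 400 bp, and 3 of these 90 (3.33%) were at a start, against 199 of the 410 wider regions (48.5%). Over all shared regions 22.0% were under that width. The narrowest were in the bodies of Myo10 (169 bp) and Ms4a13 (180 bp) and at the start of Gm13277 (174 bp).

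The widest region, 1553 bp at chr17:39846315-39847867, lay over Rn18s-rs5, an 18S ribosomal RNA sequence that the gene table lists as a pseudogene. Its folds were 13.2, 13.2 and 12.8 in DTR and 12.7, 12.9 and 13.05 in WT, and the groups overlapped. Ribosomal RNA genes are present in many near-identical copies, and the treatment of reads with several placements is not stated in the sources used here, so this value is uncertain. Next came the start of Yeats4 (1363 bp), which encodes a histone acetylation reader, and a region over BC002059 (1258 bp). Pseudogenes overlapped 13 of the 500 (2.60%), against 0.917% of all shared regions. Long noncoding RNA genes overlapped 46 (9.20%, against 13.2%). Genes that the gene table classes as microRNA, tRNA, snRNA, snoRNA, rRNA or miscellaneous RNA overlapped 3 (0.6%, against 0.626%): the leucine tRNA gene n-TLcaa1, the microRNA gene Mir1955 and Platr25.

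Most of the highest folds were not among the highest significance values. By the lowest −log10 p of a region, 52 of the 500 were among the 500 highest of all shared regions and 72 among the 1000 highest, while none was below the median of the shared regions. The median lowest −log10 p was 259 at starts, 132 in gene bodies and 141 between genes. The Asb7 body region, at fold rank 11, stood at rank 9436 by −log10 p, and Peak1, at fold rank 19, stood at rank 12785.

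The genes with a member at the start were described by lists. Of 20665 protein-coding genes on these chromosomes, 219 (1.06%) had a member at the start and 12604 had any shared region there, so 1.74% of genes with an open start had a member. Genes of the basic machinery of the cell held more: 19 of 506 (3.75%) in 9 such lists together, or 3.95% of the 481 with an open start. The members were spread over 8 of the 9 lists. The histone (0 of 72), chromatin modifier (0 of 55) and cell cycle (0 of 26) lists were not among the 9. The lists were chosen with earlier results of these data known, so the pooled share depends on which were grouped.

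Among mitochondrial ribosome genes 5 of 78 (6.41%) had a member, namely Mrpl48, Mrpl58, Mrpl27, Mrpl11 and Mrpl54. Mrpl48, at chr7:100582649-100583311, had folds of 14.3, 15.5 and 19.4 in DTR and 18.0, 17.1 and 18.6 in WT, so its DTR libraries spanned the WT range. Respiratory chain genes gave 3 of 78, with Cox7c, a cytochrome c oxidase subunit gene, at 14.2, 14.6 and 14.96 in DTR and 13.3, 14.2 and 14.6 in WT. Here the groups overlapped, and the complex I genes Ndufa12 and Ndufb3 had lowest folds of 12.8 and 11.98.

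Psmg4 led the proteasome list (2 of 47, with the ATPase subunit gene Psmc4), at folds of 16.8, 16.4 and 16.1 in DTR and 15.8, 15.9 and 16.6 in WT. Their highest was 1.06 times the lowest, with the groups overlapping. Spliceosome genes gave 3 of 46 (Prpf19, Sf3a1 and Snrpa1) and translation factor genes 3 of 67 (Eef1e1, Eif3e and Eef1akmt2, the last 2 a translation initiation subunit and a methyltransferase named for its target). Polr2m, Atp6v1h, a proton pump subunit gene, and Uba3, which activates NEDD8, were the single members of their lists. Ribosomal protein genes gave 0 of 80, of which 75 had a shared region at the start. At the 1.74% of genes with an open start that count would be about 1, so it does not stand apart.

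Zinc finger genes of the Zfp series gave 16 of 386 (4.15%), the 3 highest being Zfp563, Zfp729a and Zfp868 at lowest folds of 13.7, 13.3 and 13.1. Many of these genes sit in clusters of close copies on chromosomes 7, 13 and 17, so their values are uncertain in the same way. Histone genes gave 0 of 72, chromatin modifier genes 0 of 55 and cell cycle genes 0 of 26. With 1.06% of all genes having a member at the start, lists this short would hold few or none, so these counts do not stand apart. Olfactory receptor genes gave 0 of 1100, and 19 of those had any shared region at the start.

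Genes that mark monocytes were open and were not among the highest. In 5 monocyte and myeloid lists, which cover classical and non-classical monocyte genes, myeloid transcription factors, AP-1 and immediate early genes and myeloid receptors, 106 of 110 genes had a shared region at the start and 0 had a member. At the 1.06% of all genes a list of that size would hold about 1, so this count does not stand apart. At the 1.74% of genes with an open start, used above for the ribosomal proteins, such a list would hold somewhat more. In the interferon list 0 of 24 had a member at the start. Other blood cell lists together gave 0 of 69, with 32 open starts. The interferon and other blood cell lists are shorter than the monocyte and myeloid lists together, so their counts do not stand apart either.

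Members between genes included some far from any gene. In all, 43 of the 500 (8.60%) were over 50 kb from the nearest protein-coding gene, against 9.83% of shared regions. The farthest was 784341 bp from Zeb2, which encodes a transcription factor of monocyte and dendritic cell development. Its folds were 17.4, 12.96 and 13.8 in DTR and 16.3, 16.1 and 12.1 in WT. Both groups had high and low libraries, and the highest was 1.44 times the lowest.

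The next farthest were 410560 bp from Myc, 317994 bp from Runx1, a blood cell transcription factor, and 295024 bp from Ptger4, a prostaglandin receptor gene, followed by the region near Pex2 described above. The one near Myc had folds of 14.1, 13.4 and 14.4 in DTR and 14.2, 13.02 and 16.8 in WT, and the one near Runx1 had 12.96, 12.3 and 12.6 in DTR and 12.3, 11.9 and 13.8 in WT. In both the groups overlapped. Nearest here means by distance alone, and no link to the gene was measured.

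Members were spread over all 19 chromosomes. Chromosome 7 held 48 (9.60%, against 6.24% of shared regions), the most per shared region at 11.5 per 1000, and chromosome 12 the fewest at 4.94 per 1000. In 13 cases a pair of neighbouring members lay within 50 kb, among them a pair near Klhl6 and regions at or near Lsm11 and Thg1l on chromosome 11. At 139 starts with a single listed position the centre of the region lay a median of 87 bp downstream, against 75 bp at 7354 such starts in shared regions, a difference small beside the quartiles of −19 to 164 bp.

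The 500 regions varied little between libraries. The highest fold of a region was a median of 1.12 times its lowest (range 1.03 to 1.53), against 1.22 over all shared regions. Choosing on the lowest of 6 values favours regions with a small spread, so this difference is not independent of the choice. The widest spread was at the start of Egf, which encodes epidermal growth factor, with 17.5, 17.5 and 14.98 in DTR and 11.95, 17.3 and 18.3 in WT. WT replicate 1 stood apart there as the lowest of the 6.

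Between the groups the mean fold of a region differed by at most 10% in 476 of 500 (95.2%), against 76.1% of all shared regions. This too is a description that is not independent of the choice, which favours regions whose libraries have like values. The ratio of the DTR mean to the WT mean ran from 0.808 to 1.21. Each library's folds come from its own list, so the groups were compared by the rank of a region among the 67099 shared regions of its library. With 3 libraries against 3 no exact test of a single region can go below p = 0.1.

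Of the 500, 28 (5.6%) ranked higher in all 3 DTR than in all 3 WT libraries, where 7.35% of all shared regions did. Another 27 (5.4%) ranked higher in all WT libraries, where 9.96% of all shared regions did. Both shares were below the background. The choice of the 500 favours regions whose libraries have like values, so these shares too are not independent of it. On the authors' fold without ranking the shares were 7.40% and 3.60%, against 10.4% and 5.12%. Relative to the library median they were 3.40% and 13.6%, against 6.76% and 11.1%, so the balance of the 2 directions depended on the scale and the WT share was above the background on that scale.

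Among the regions whose ranks did not overlap, the largest ratio towards DTR was at chr3:135731319-135731657, 39350 bp from Nfkb1, which encodes an NF-kB subunit. Its folds were 22.9, 22.2 and 19.5 in DTR and 17.4, 18.3 and 17.7 in WT (means 21.5 ± 1.83 and 17.8 ± 0.457, SD, n = 3 each), a ratio of 1.21. All DTR libraries were above all WT libraries, without overlap.

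At Ints4, whose start is shown above, folds were 12.8, 14.999 and 15.05 in DTR and 12.1, 11.96 and 12.4 in WT, a ratio of 1.17, with DTR replicate 1 close to the WT values.

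Also among the 5 largest ratios of the 28 towards DTR were regions 11259 bp from Vamp8, a membrane fusion gene, and 12979 bp from Zfp677. Near Vamp8 folds were 18.6, 17.6 and 15.4 in DTR and 13.8, 14.05 and 15.4 in WT. There the lowest DTR and the highest WT value nearly met. Near Zfp677 folds were 16.02, 15.7 and 14.4 in DTR and 12.4, 14.4 and 12.2 in WT, where the fold ranges overlapped and the ranks did not.

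Towards WT the largest difference was in the body of Asb7, a ubiquitin ligase subunit gene, at chr7:66661439-66661972. Its folds were 18.3, 18.2 and 19.8 in DTR and 25.04, 21.7 and 23.0 in WT (means 18.8 ± 0.866 and 23.2 ± 1.70, SD, n = 3 each), a DTR to WT ratio of 0.808. The groups were apart, and this was the largest ratio among the 500 in either direction.

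Among the 27 regions ranked higher in all WT libraries the body of Slc6a16 came next, with 14.2, 14.8 and 13.9 in DTR and 14.3, 20.2 and 16.6 in WT. WT replicate 1 lay inside the DTR range there by fold. The bodies of Rapgef6, a guanine nucleotide exchange factor gene, and Tbxas1, the thromboxane synthase gene, and the start of Gm6712 followed, with ratios of 0.857, 0.890 and 0.913. Tbxas1 had 12.1, 13.6 and 12.8 in DTR and 13.2, 14.2 and 15.9 in WT, so its fold ranges overlapped.

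The 28 regions towards DTR were 7 at starts, 7 in gene bodies and 14 between genes, with a median ratio of 1.09. The 27 towards WT were 11 at starts, 8 in bodies and 8 between genes, with a median ratio of 0.948.

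**Figure D5:**
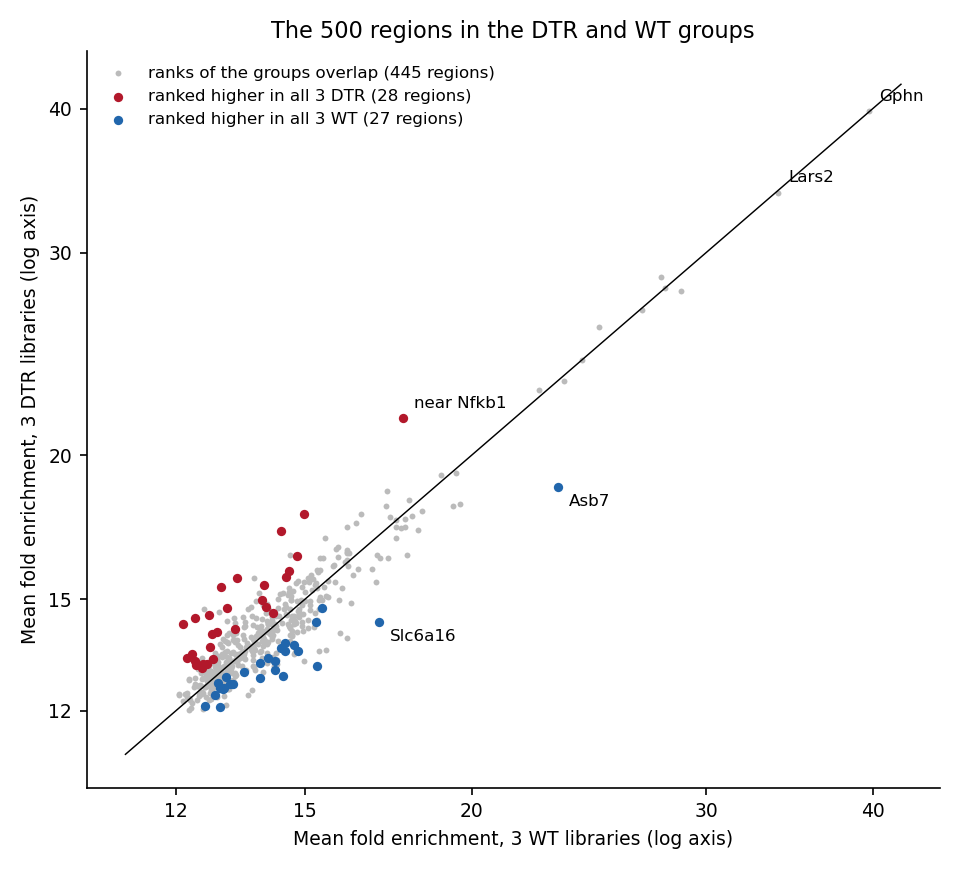
Each point is 1 of the 500 regions, by its mean fold in the 3 WT libraries and in the 3 DTR libraries on log axes, with the line of equal values. Red and blue points are the 28 and 27 regions whose ranks do not overlap between groups, and the ratios lie between 0.808 (Asb7) and 1.21 (near Nfkb1).

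As a set, the regions' median fold divided by the library's median over shared regions was 2.36, 2.33 and 2.35 in the DTR libraries and 2.37, 2.38 and 2.41 in the WT libraries. All WT values were above all DTR values. The means were 2.35 ± 0.0134 and 2.39 ± 0.0212 (SD, n = 3 each), a difference of −0.0393. These are the folds that chose the regions, so the difference is a description and no p-value is given for it. Permutation p-values were computed for the fold measures, and they enter here only through the adjustment given below for width. Undivided, the median fold was 13.7 ± 0.145 in DTR and 13.6 ± 0.280 in WT, where the sign was the opposite (difference 0.0548).

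The median width of the highest peak in the 500 regions was 597.5, 585 and 590.5 bp in the DTR libraries and 584, 561 and 572 bp in the WT libraries. All DTR libraries were above all WT libraries, by a mean of 18.7 bp (p = 0.1, the smallest that a two-sided exact permutation test over 6 libraries can give). Over all shared regions the widths were 557 ± 11.5 bp in DTR and 526 ± 23.3 bp in WT, a difference of 31 bp (exact permutation p = 0.2), so the difference had the same sign there. The median −log10 p over the 500 regions was 221 ± 9.20 in DTR and 205 ± 20.4 in WT (SD, n = 3 each, exact permutation p = 0.3). After Benjamini-Hochberg adjustment over 5 group measures computed, the fold measures included, the exact permutation p of the members' width was 0.25. The fold measures use the values that chose the regions, and without them the adjusted value would be larger.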

How the data were processed

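ATAC-seq peaks of 3 DTR and 3 WT mouse monocyte libraries were used as deposited, as 1 list of broad peaks per library. The submitters' processing notes name MACS2, fastp, Bowtie and version 2.4.4 of Bowtie2. Their parameters, the genome build and the treatment of reads with several placements were not given in the sources used here. Per the file layout, the deposited columns are the authors' score, a fold (ratio) of signal to estimated background, and 2 significance columns, −log10 p-value and −log10 q-value. The smallest −log10 q was 1.01. The score was not used.

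Peaks were merged and ranked as described in the report. Groups come from the sample titles. Genes came from a RefSeq table of GRCm38.p6. Its starts fell in shared regions for 55.1% of 20085, against 4.07% and 4.40% after a move of 20 kb to either side. Listed starts cover 79.6% of 20665 protein-coding genes and none on chromosome 18. For genes without one, both gene ends were used, and 31 of the 202 start calls rest on these alone. No genome sequence was used, so exons and introns were not told apart and repeats were not checked. Long noncoding RNA genes and pseudogenes were counted by overlap.

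Regions were compared between groups by rank within a library, and widths and −log10 p by exact permutation over libraries. Same-numbered libraries did not deviate together (correlations 0.00327, 0.0740 and −0.0324 over 67099 regions). Regions named are the 20 highest, the 3 on each side of the limit, up to 3 per gene list, the 5 largest group differences in each direction, the 3 widest and narrowest and the 5 farthest from a gene. The Egf start and the remaining list members were named after their values were seen. Some regions that this rule names are not reported here. The members and lists were chosen with earlier results of these data known. The scripts were tested on simulated lists. Python 3.11.15, pandas 2.3.3, numpy 2.4.6 and scipy 1.17.1 were used.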

Additional observations from a re-analysis of the deposited data

Results flagged for a closer look

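The 500 regions were taken from chromosomes 1 to 19. Outside these, 18 regions had a peak in all 6 libraries and a lowest fold at or above the limit of the 500: 17 on chromosome X, with lowest folds up to 15.8, and 1 on chromosome Y, at 12.5. None was on the mitochondrial chromosome or the unplaced contigs. They are a signal in data that the comparisons above did not use.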

How the results depend on the processing

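Of 62 values computed under alternative settings, 45 kept within their limits, 16 moved and 1 reversed. Ranking by −log10 p in place of fold kept 52 of the 500 regions and put 87.2% at a gene start. The other settings that used all 6 libraries kept 371 to 500 regions, and leaving out 1 library kept 450 to 486. The start share otherwise lay between 37.2% and 43.2%, and between 39% and 40% with 1 library left out; using either end of every gene, chosen after seeing the data, gave 40.2%. The shares ranked higher in all DTR and in all WT libraries were 7.40% and 3.60% on the authors' fold, and 3.40% and 13.6% on the fold over the library median. With 1 library left out the shares were 7.2% to 13% for DTR and 8.40% to 12.8% for WT, where fewer libraries have to be apart and the background rose to between 11.1% and 18.6%. The difference in relative fold (−0.0393) was −0.0495 to −0.0278 with 1 library left out and reversed to 0.0548 on the authors' fold. The difference in width was 11.8 to 24.2 bp. A replicate block gave the same differences (−0.0393 and 18.7 bp), with p = 0.25 for the width by exact sign-flip permutation, the smallest 3 pairs allow; the shared numbers are not known to pair the libraries. Depth is unknown, so no interval could be given for a fold.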
